A study of Drosophila melanogaster with 7 samples.

Results

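The CYP3 clan is the group of cytochrome P450 genes that in *Drosophila melanogaster* holds the families Cyp6, Cyp9, Cyp28, Cyp308, Cyp309, Cyp310 and Cyp317. Its members were taken by symbol from the annotation of the array platform, as every probe set other than the array controls whose gene symbol starts with 1 of these family names. This gave 39 probe sets for 37 genes, out of 10844 genes on the array, and each gene was represented by its probe set of highest average level across the 7 arrays. Of the 37 genes, 22 lie on chromosome arm 2R, 7 on 2L, 4 on 3R and 4 on the X chromosome, and none on chromosome 4. All 37 were tested, since no filter on low values was applied.

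The groups were 4 pools of *pof* mutant larvae and 3 pools of wild-type larvae, each of 400 whole first-instar larvae of mixed sex, with 1 Affymetrix array of polyA RNA per pool. The Pof protein binds RNA and is known for coating chromosome 4. Nothing in the labels says which allele, stock background, food or age in hours the larvae had, so a difference between the groups cannot be told apart from one between the stocks. In whole larvae, fewer cells of a type and less RNA per cell cannot be told apart either.

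Cytochrome P450 enzymes hold a haem group and use molecular oxygen to oxidise a substrate, with electrons passed on by a reductase or by cytochrome b5. In insects the CYP3 clan is known mainly for the oxidation of foreign compounds such as plant toxins and insecticides, and several of its genes are more active in resistant strains. Many members arose by tandem duplication and still lie side by side, and the midgut, Malpighian tubules and fat body are their main sites of expression in larvae. A few have other roles, in hormone synthesis or behaviour.

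Values are log2 expression values made with RMA, a method that removes background, brings the arrays to a common distribution and gives 1 value per probe set. A difference of 1 on this scale is a factor of 2 in signal. Values compare arrays within a probe set, while levels of different probe sets are not on a common scale. Array medians ran from 6.01 to 6.06, and pairwise correlations between arrays from 0.970 to 0.995. The *Pof* transcript was close to the lowest signals on all arrays. It averaged 3.44 ± 0.04 (SD, n = 4) on the mutant arrays, against 3.77 ± 0.13 (SD, n = 3) on the wild-type arrays (limma, adjusted p = 0.323), so it checks the labels only weakly. The arrays differed in how far the signal of control transcripts reached towards the 5' end. The mean 3' minus 5' difference of 3 controls (log2) was 3.22 on pof mutant replicate 1, 3.95 on pof mutant replicate 2 and 4.32 on wild type replicate 1, and 1.92 to 2.19 on the other arrays. Precision is limited by there being only 7 arrays.

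In the *pof* mutant the CYP3 clan did not move one way. 1 gene, *Cyp6a17*, rose past the threshold, its neighbour *Cyp6a23* lay just outside it on the lower side, and *Cyp6a8* and *Cyp9c1* were lower and *Cyp28a5* higher on every mutant array than on any wild-type array, without passing. Over all 37 genes the median of the log2 differences (pof mutant minus wild type) came to -0.02 (17 genes with a higher mean, 20 with a lower one), the same to 2 decimals as the -0.02 over all 10844 genes. The threshold was an adjusted p under 0.05 in limma, Benjamini-Hochberg over 13966 probe sets, and 1 of 37 members passed it, where 0.0646% of all genes did (7 of 10844), 0.0369% as higher and 0.0277% as lower.

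The spread of the members around this median was wide. An unadjusted p under 0.05 was found for 10 of 37 members (27.0%), 7 higher and 3 lower in the mutant, against 5.73% of all genes (3.14% higher, 2.59% lower). The groups did not overlap for 10 members (27.0%), 6 higher and 4 lower in the mutant, against 6.26% of all genes (3.39% higher, 2.87% lower). For *Cyp6d5*, *Cyp6a14* and *Cyp9h1* among them, the nearest values of the groups were almost equal. A log2 difference of at least 1 in size was found for 3 members (8.11%), 1 higher and 2 lower, against 0.212% of all genes (0.0738% higher, 0.138% lower). The members were chosen with earlier results of these data known, so these shares are a description and carry no test. A mean log2 level of at least 6 was reached by 23 of 37 members and by 5897 of 10844 genes.

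**Figure D1:**
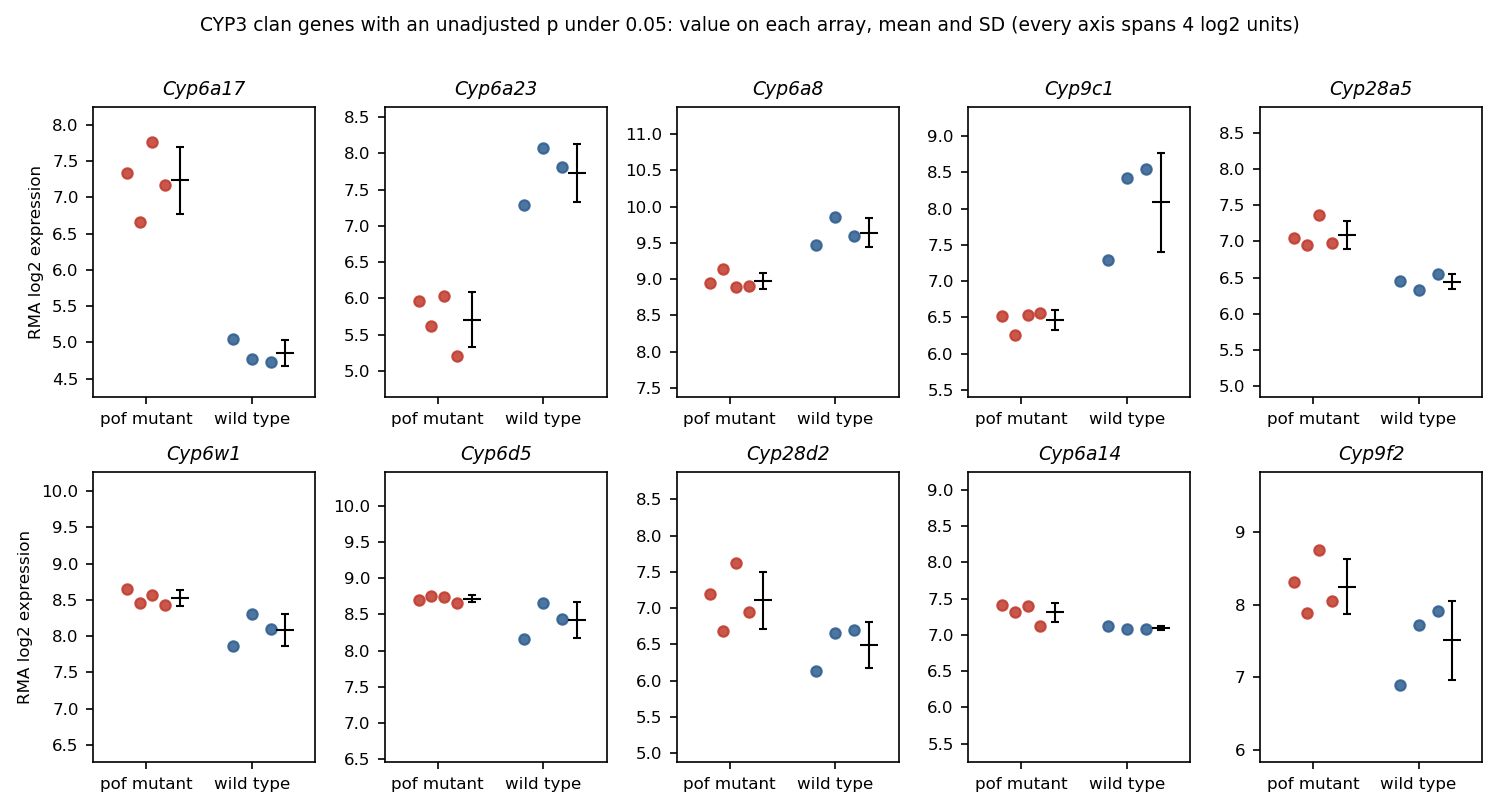
RMA log2 expression on each array for the 10 CYP3 clan genes with an unadjusted limma p under 0.05, pof mutant (red, 4 arrays) and wild type (blue, 3 arrays), with the mean and SD as black bars; every axis spans the same 4 log2 units. *Cyp6a17* lay between 6.66 and 7.76 on the mutant arrays and between 4.72 and 5.05 on the wild-type arrays, and only *Cyp28d2* and *Cyp9f2* among the 10 overlapped between the groups.

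The largest neighbouring cluster held the 2 differences of largest size, of opposite sign. Genes were counted as neighbours where at most 5 other annotated genes lay between them in the RefSeq gene order, which put 20 members in 6 clusters and left 17 single. The largest cluster, on chromosome arm 2R, runs without any other gene between its 9 members from *Cyp6a22* over *Cyp6a17*, *Cyp6a23*, *Cyp6a19*, *Cyp6a9*, *Cyp6a20*, *Cyp6a21* and *Cyp6a8* to *Cyp317a1*. Of these 9, 1 passed as higher in the mutant and none as lower (limma, adjusted p under 0.05), while 3 had an unadjusted p under 0.05. Over all genes 0.0646% passed and 5.73% had an unadjusted p under 0.05. The median difference of the 9 genes was -0.04.

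*Cyp6a17* (probe set 152313_at), a gene needed in the brain for normal temperature preference, was at 7.34, 6.66, 7.76 and 7.17 on the mutant arrays, against 5.05, 4.77 and 4.72 on the wild-type arrays. The lowest mutant array was well above the highest wild-type array, and the mutant arrays spread more (1.10 from lowest to highest) than the wild-type arrays (0.329). It rose by 2.39 ± 0.23 (SE) on the log2 scale, a 5.22-fold difference, with a 95% interval of 1.84 to 2.93 (limma, adjusted p = 0.0177). No gene of the 10844 had a higher difference. The call, unlike the difference, was lost in some fits without 1 array: leaving out pof mutant replicate 1 gave an adjusted p of 0.145, pof mutant replicate 4 of 0.0769, wild type replicate 2 of 0.157 and wild type replicate 3 of 0.102, with differences of 2.32 to 2.40 in these 4 fits. Few probe sets of the 13966 passed in them at all, 0, 6, 2 and 6 in the same order, against 9 with all arrays.

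*Cyp6a23* (147225_at), the next gene along the arm, had the opposite sign. It was at 5.96, 5.62, 6.03 and 5.20 on the mutant arrays, against 7.29, 8.07 and 7.82 on the wild-type arrays. All mutant arrays lay below all wild-type arrays, by a gap of over 1 log2 unit. The difference of -2.02 ± 0.24 (SE), a level 4.07-fold higher in wild type, lay just outside the threshold (limma, adjusted p = 0.0529), and inside it without wild type replicate 1 (adjusted p = 0.0231). Leaving out each of the other 6 arrays in turn gave adjusted p from 0.081 to 0.282, and the difference ran from -2.24 to -1.85 over the 7 fits. Subtracting the value of *Cyp6a23* from that of *Cyp6a17* on the same array gave 1.38, 1.04, 1.73 and 1.97 in the mutant, against -2.24, -3.30 and -3.10 in wild type. Because the genes differed in opposite directions, this subtraction had to separate the groups, and its sign, which sets 1 probe set against another, cannot be read. The *Cyp6a* genes of the cluster are related in sequence, and whether probes of 1 gene bind RNA of another was not tested.

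*Cyp6a8* (142189_at), whose enzyme hydroxylates the fatty acid lauric acid, had the highest mean level of the 37 members, 9.26, at the 95.4 percentile of all probe sets. It was at 8.95, 9.14, 8.88 and 8.91 on the mutant arrays, against 9.47, 9.85 and 9.60 on the wild-type arrays. The groups were tight and did not overlap, with a difference of -0.67 ± 0.11 (SE), a level 1.59-fold higher in wild type (limma, adjusted p = 0.145).

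The other 6 genes of the cluster had no unadjusted p under 0.05. *Cyp6a21* was at 4.98, 5.51, 4.64 and 4.94 on the mutant arrays, against 6.33, 5.56 and 5.10 on the wild-type arrays. The groups overlapped, and its difference of -0.65 ± 0.30 (SE) had an interval of -1.35 to 0.05, so neither no difference nor a large one was outside it. *Cyp6a9* was at 7.24, 6.89, 7.51 and 6.81 in the mutant, against 6.74, 6.69 and 7.31 in wild type, again with overlap (0.20 ± 0.21). *Cyp6a22* (-0.01 ± 0.09), which precedes *Cyp6a17*, and *Cyp6a19* (-0.04 ± 0.12), which follows *Cyp6a23*, lay close to 0, as did *Cyp6a20* (-0.06 ± 0.09), a gene linked to male aggression, and *Cyp317a1* (0.06 ± 0.08). The 95% intervals of these last 4 genes lay within 0.5 of 0, but their mean levels were 3.89 to 5.37, where RMA compresses differences. The RefSeq spans of *Cyp6a19* and *Cyp6a9* overlap, so their signals may not be fully separate.

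**Figure D2:**
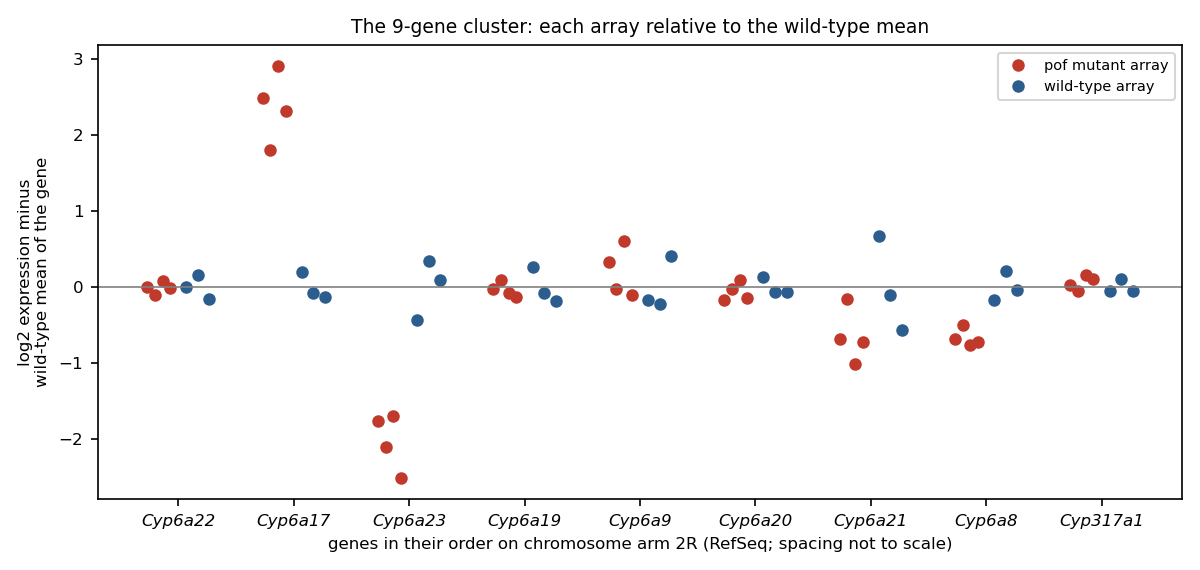
The 9 genes of the largest cluster in their order on chromosome arm 2R, with the log2 expression on each pof mutant array (red) and each wild-type array (blue) minus the wild-type mean of that gene. *Cyp6a17* and its neighbour *Cyp6a23* stand apart in opposite directions (log2 differences of 2.39 and -2.02), *Cyp6a8* lies below 0 on all 4 mutant arrays, and the genes on the outer sides of the pair, *Cyp6a22* and *Cyp6a19*, lie near 0.

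The other 5 clusters were small. In the group of *Cyp6g1*, *Cyp6g2* and *Cyp6t3* on 2R no gene had an unadjusted p under 0.05. *Cyp6g1*, whose overexpression gives resistance to DDT and neonicotinoids, was at 4.82 to 5.12 on the mutant arrays, against 4.67 to 4.93 on the wild-type arrays, with a difference of 0.17 ± 0.10. The groups overlapped, and the level was low in both. *Cyp6g2*, a gene linked to juvenile hormone synthesis in the corpora allata, differed by -0.08 ± 0.06, and *Cyp6t3*, a gene of ecdysone synthesis in the prothoracic gland, by 0.04 ± 0.07. All 3 intervals lay within 0.5 of 0. The RefSeq spans of *Cyp6g1* and *Cyp6g2* overlap.

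Among the pairs, *Cyp6a14* and *Cyp6a13* lie on 2R with a pseudogene between them. *Cyp6a14* (146815_at) was at 7.41, 7.32, 7.40 and 7.12 in the mutant, against 7.12, 7.09 and 7.08 in wild type. The wild-type arrays were nearly equal and the lowest mutant array only just exceeded them. Its difference of 0.22 ± 0.08 (SE) did not pass (limma, adjusted p = 0.842), and *Cyp6a13* differed by -0.08 ± 0.11. The pair *Cyp9b1* (-0.06 ± 0.07) and *Cyp9b2* (0.07 ± 0.15) on 2R and the pair *Cyp309a1* (0.05 ± 0.09) and *Cyp309a2* (0.05 ± 0.09) on 2L gave intervals within 0.5 of 0 for all 4 genes. *Cyp9b1* had the lowest mean level of the members, 3.54, and that of its neighbour *Cyp9b2* was 8.32. The second probe set of *Cyp9b2* gave a difference of 0.02 ± 0.09. The last pair, *Cyp28d2* and *Cyp28d1*, is described with its family.

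By subfamily, the 13 *Cyp6a* genes held 4 of the 10 members with an unadjusted p under 0.05, of which 2 were higher and 2 lower, where 5.73% of all genes had such a p. The median difference of the 13 was -0.06. Besides the genes above they include *Cyp6a2*, an enzyme that metabolises several insecticides. *Cyp6a2* was at 8.19, 7.97, 8.72 and 8.50 in the mutant, against 7.48, 9.10 and 9.36 in wild type. Wild type replicate 1 was the lowest of the 7 arrays and the other wild-type arrays the highest, so the wild-type range (1.88) was wider than the mutant range (0.749). Its difference of -0.30 ± 0.43 (SE) was -0.88 without wild type replicate 1 (limma, adjusted p = 0.285) and 0.06 without wild type replicate 3. As a description, the correlation of *Cyp6a2* with the 3' minus 5' difference over the 7 arrays was -0.931 (Pearson). *Cyp6a16* on 2L (0.03 ± 0.07, mean level 8.67) and *Cyp6a18* on 3R (-0.06 ± 0.17) lay close to 0.

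In the *Cyp6d* subfamily 2 of 3 genes had a slightly higher mean in the mutant, as did the 1 *Cyp6w* gene. Over all genes 4559 of 10844 had a higher mean in the mutant, and 3.39% were higher without overlap. *Cyp6w1* (152494_at), an enzyme that can metabolise DDT, was at 8.65, 8.45, 8.57 and 8.42 in the mutant, against 7.86, 8.31 and 8.10 in wild type. The groups did not overlap, with a difference of 0.44 ± 0.11 (SE; limma, adjusted p = 0.43). *Cyp6d5* (152120_at) was at 8.70, 8.76, 8.75 and 8.66 in the mutant, against 8.16, 8.65 and 8.44 in wild type. The mutant arrays were almost equal and the highest wild-type array came close to them. The difference was 0.30 ± 0.11 (SE; limma, adjusted p = 0.83), and 0.17 without wild type replicate 1. *Cyp6d4* was at 6.10, 6.10, 6.29 and 6.23 in the mutant, against 5.99, 5.99 and 6.08 in wild type (0.17 ± 0.07). Its groups did not overlap, although its difference was small. *Cyp6d2*, which has been linked to resistance to camptothecin, differed by -0.13 ± 0.10. The single members *Cyp6u1* (-0.07 ± 0.10), *Cyp6v1* (-0.02 ± 0.07) and *Cyp6t1* (-0.04 ± 0.08) had intervals within 0.5 of 0.

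**Figure D3:**
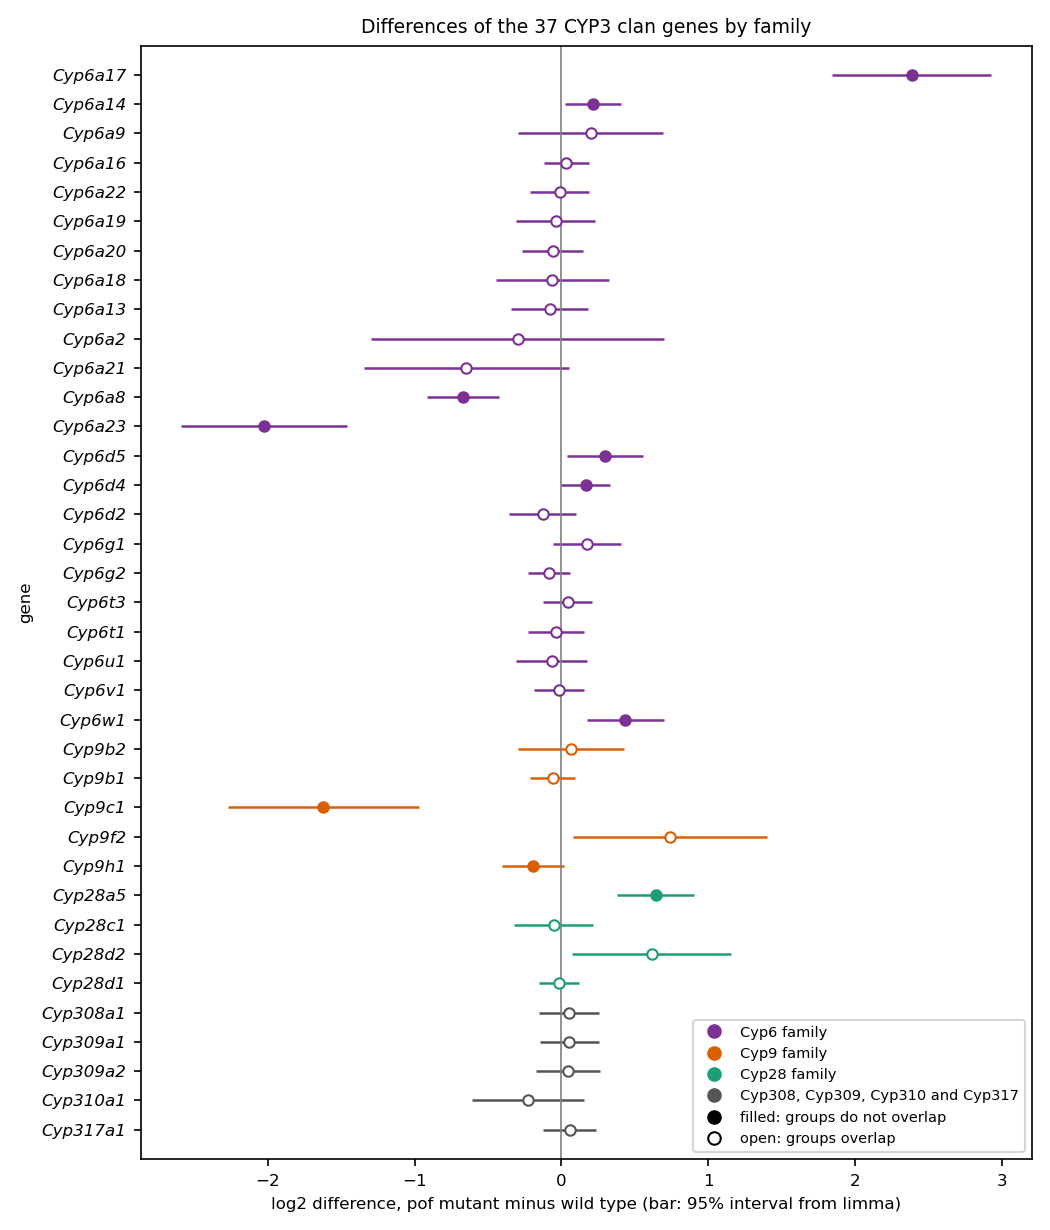
Log2 difference, pof mutant minus wild type, of all 37 CYP3 clan genes with the 95% interval from limma, ordered by family and subfamily; filled points mark the 10 genes whose groups do not overlap. Differences ran from -2.02 for *Cyp6a23* to 2.39 for *Cyp6a17*, and the intervals of 24 of the 37 genes lay within 0.5 of 0.

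The Cyp9 family had 5 genes, of which *Cyp9c1* had the lowest difference and *Cyp9f2* the highest, the latter with overlap between the groups. *Cyp9c1* (141780_at) on 2R was at 6.52, 6.25, 6.53 and 6.56 in the mutant, against 7.30, 8.42 and 8.54 in wild type. Every mutant array lay below every wild-type array, and wild type replicate 1 lay between the mutant arrays and the other wild-type arrays. The difference was -1.62 ± 0.28 (SE), a level 3.07-fold higher in wild type, and did not pass (limma, adjusted p = 0.169). Without wild type replicate 1 it was -2.01 and passed (adjusted p = 0.00254), in a fit in which 34 of all 13966 probe sets passed, against 9 with all arrays. Leaving out each of the other 6 arrays in turn gave differences from -1.65 to -1.39 and adjusted p from 0.316 to 0.578.

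*Cyp9f2* (153031_at) on 3R was at 8.32, 7.88, 8.76 and 8.05 in the mutant, against 6.89, 7.73 and 7.92 in wild type. Pof mutant replicate 2 lay within the wild-type range, and wild type replicate 1 was the lowest array. The difference was 0.74 ± 0.29 (SE; limma, adjusted p = 0.846), and 0.43 without wild type replicate 1. The second probe set of this gene gave 0.52 ± 0.30. *Cyp9h1* was at 4.00, 4.23, 4.16 and 4.19 in the mutant, against 4.23, 4.51 and 4.27 in wild type (-0.19 ± 0.09), at the 14.4 percentile of all probe sets. Its groups did not overlap, but only just, with the nearest arrays at 4.227 in the mutant and 4.235 in wild type.

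The Cyp28 family had 4 genes, 2 with a higher and 2 with a lower mean in the mutant. An unadjusted p under 0.05 was found for 2, both higher, where 3.14% of all genes had such a p as higher. *Cyp28a5* (152734_at) on 2L was at 7.04, 6.95, 7.37 and 6.98 in the mutant, against 6.46, 6.33 and 6.54 in wild type. The groups were well apart, with a difference of 0.64 ± 0.11 (SE), or 1.56-fold (limma, adjusted p = 0.169). *Cyp28d2* (145813_at) was at 7.19, 6.68, 7.62 and 6.94 in the mutant, against 6.13, 6.66 and 6.70 in wild type. Pof mutant replicate 2 lay within the wild-type range, and the difference was 0.61 ± 0.23 (SE; limma, adjusted p = 0.842). Its neighbour *Cyp28d1*, a gene linked to nicotine tolerance, was nearly constant, at 6.49, 6.52, 6.49 and 6.49 in the mutant, against 6.56, 6.55 and 6.43 in wild type. Its difference of -0.02 ± 0.06 had an interval of -0.16 to 0.12, against 0.07 to 1.15 for *Cyp28d2*, so the intervals of the pair just overlap. *Cyp28c1* on the X differed by -0.05 ± 0.12. Of the remaining members, *Cyp308a1* on the X differed by 0.05 ± 0.09, and *Cyp310a1* on 2L by -0.23 ± 0.16, with its highest value on wild type replicate 1 (4.69).

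**Figure D4:**
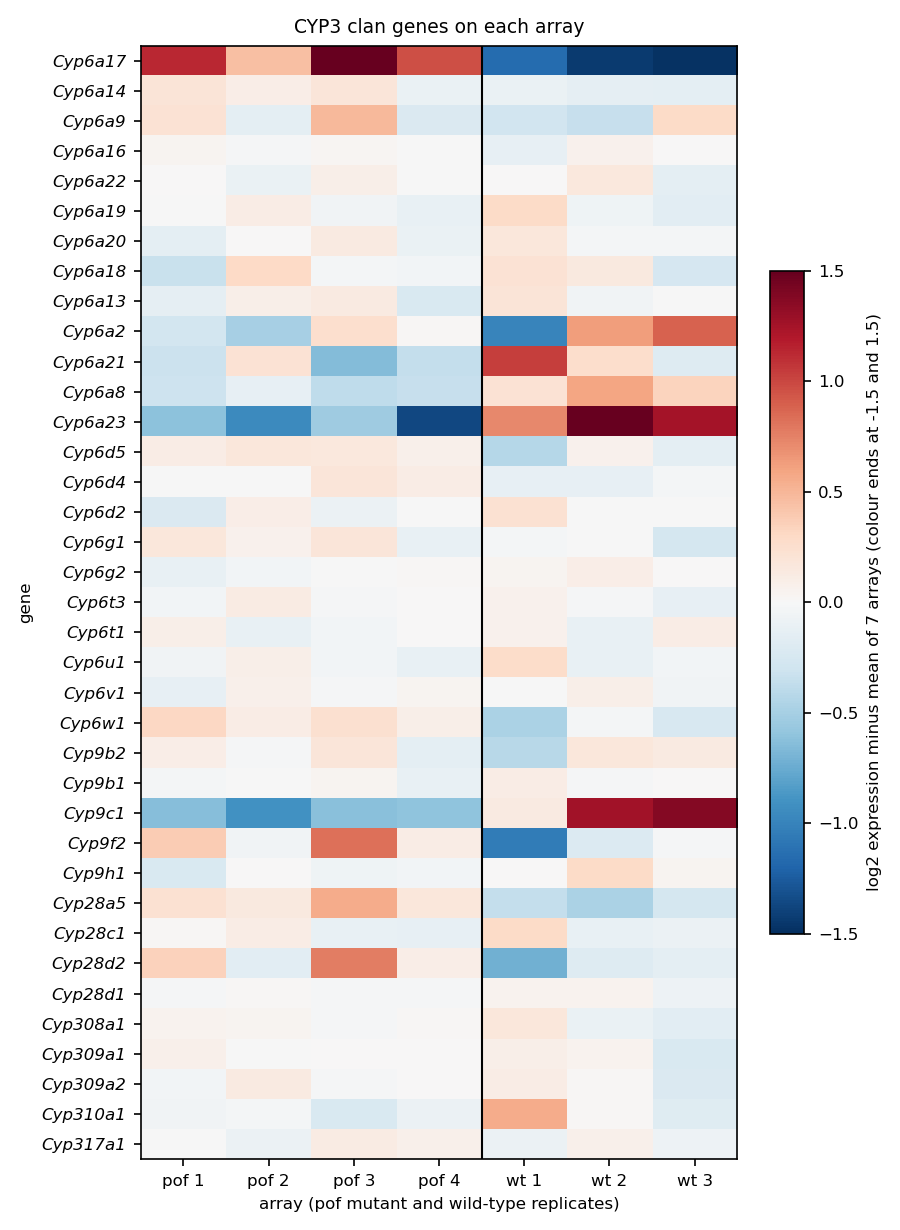
Each of the 37 CYP3 clan genes (rows, by family) on each array (columns, the 4 pof mutant arrays left of the 3 wild-type arrays), as log2 expression minus the mean of the gene over 7 arrays; the colour scale ends at -1.5 and 1.5. *Cyp6a17*, *Cyp6a23* and *Cyp9c1* change colour between the groups, while *Cyp6a2*, *Cyp9f2* and *Cyp9c1* also differ between wild type replicate 1 and the other wild-type arrays.

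Wild type replicate 1 gave the highest of the 7 values for 12 members and the lowest for 9, against 35.4% and 23.5% of all genes. A correlation with the 3' minus 5' difference beyond 0.7 in size was found for 9 of 37 members (24.3%) and for 41.8% of all genes, over the same 7 arrays and with no test. The 9 were *Cyp6a2*, *Cyp28c1*, *Cyp6a19*, *Cyp6u1*, *Cyp308a1*, *Cyp6t3*, *Cyp310a1*, *Cyp309a2* and *Cyp6a16*. None of the 10 members with an unadjusted p under 0.05 was among them, with correlations from -0.564 (*Cyp9f2*) to 0.234 (*Cyp6a14*). Genes picked for a difference between the groups can hardly reach 0.7 here, because the 3' minus 5' difference varied within both groups. Their absence from the 9 therefore cannot be read, and the part of RNA evenness in their differences was not tested. With the 3' minus 5' difference as a covariate, 5 members passed (limma, adjusted p under 0.05). They were *Cyp6a17* and *Cyp28a5* (0.65) as higher in the mutant, and *Cyp6a23* (-2.01), *Cyp6a8* (-0.67) and *Cyp9c1* (-1.58) as lower, where 86 of all 13966 probe sets passed.

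Markers of the midgut were higher in the mutant as a group mean, without overlap but only just, while their summed level overlapped between the groups. The mean log2 level of 8 midgut markers was 10.97, 10.50, 11.13 and 10.67 on the mutant arrays, against 10.28, 10.45 and 10.36 on the wild-type arrays. A higher mean in the mutant was found for 7 of the 8, and for 4559 of all 10844 genes. The differences of the 8 ran from -0.58 (*Jon25Biii*) to 1.37 (*betaTry*), and the groups did not overlap for either of these genes. The summed level of the 8 in log2 ran from 14.74 to 15.21 in the mutant and from 14.57 to 14.77 in wild type, with overlap. None of the 8 passed (limma, adjusted p under 0.05), and 5 had an unadjusted p under 0.05, 4 higher and 1 lower, where 5.73% of all genes did. The markers were chosen with earlier results of these data known, so this count carries no test. By this mean the mutant arrays ran in the order 3, 1, 4, 2. *Cyp6a17*, *Cyp28a5*, *Cyp28d2*, *Cyp9f2* and *Cyp6a22* had their 4 mutant values in that same order, 5 of 37 members (13.5%), as did 4.77% of all genes. This order was looked at after the values were seen, and the part of the midgut markers in these differences was not tested.

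The list means of markers of the other main sites of P450 expression overlapped between the groups, although single markers did not. The 5 measured Malpighian tubule markers had mean log2 levels of 7.25 to 7.43 in the mutant and 7.20 to 7.50 in wild type, and none had an unadjusted p under 0.05. The 7 fat body markers had means of 8.70 to 8.82 in the mutant and 8.64 to 8.75 in wild type, while 4 of the 7 had an unadjusted p under 0.05 and no overlap, *mdy* (0.57) and *FASN1* (0.37) with a higher mean in the mutant and *fon* (-0.37) and *Tps1* (-0.52) with a lower one. The 4 measured oenocyte and hydrocarbon synthesis markers had means of 7.54 to 7.61 in the mutant and 7.31 to 7.59 in wild type, and their 1 gene with an unadjusted p under 0.05 was *Desat1*, a fatty acid desaturase (0.46 ± 0.15), without overlap. The means of 2 measured muscle markers, 3 neuron markers and 4 cuticle markers also overlapped between the groups, while single cuticle markers did not overlap (1 higher, 2 lower). None of the genes in these lists passed (limma, adjusted p under 0.05). Over all genes 5.73% had an unadjusted p under 0.05 and 6.26% did not overlap between the groups.

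Genes that serve or regulate P450 enzymes gave no call. Of the electron donors of microsomal P450, *Cyt-b5*, cytochrome b5, was at 9.24, 8.81, 9.42 and 9.30 in the mutant, against 8.05, 9.21 and 9.30 in wild type (0.34 ± 0.30). *Cyt-b5-r*, on the same list as a cytochrome b5-related protein but not shown here to be such a donor, differed by -0.56 ± 0.31. The reductase gene *Cpr* was not analysed here. None of 5 measured genes of haem synthesis had an unadjusted p under 0.05, with differences from -0.17 to 0.06 and all 5 intervals within 0.5 of 0. None of 6 regulators of the response to foreign compounds had an unadjusted p under 0.05 either, with differences from -0.16 to 0.44 and 5 of 6 intervals within 0.5 of 0. *maf-S*, the small Maf partner of the stress factor *cnc*, was at 8.64, 8.73, 8.44 and 7.91 in the mutant, against 8.26, 7.73 and 7.98 in wild type (0.44 ± 0.21). *Keap1*, which holds *cnc* back, differed by -0.16 ± 0.08, and *cnc* itself by -0.14 ± 0.09.

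The other P450 clans also had medians near 0, and the CYP4 and mitochondrial clans had single genes far from it. In the CYP4 clan 1 of 32 genes passed and 5 had an unadjusted p under 0.05 (2 higher, 3 lower), with a median of -0.04 and differences from -1.05 to 1.61. In the mitochondrial clan 1 of 11 passed and 4 had an unadjusted p under 0.05 (2 higher, 2 lower), with a median of -0.04 and differences from -2.84 to 0.72. In the CYP2 clan none of 5 genes passed or had an unadjusted p under 0.05, and the median was -0.01 with differences from -0.12 to 0.53. Of the enzymes that act on the products of P450, 4 of 34 glutathione S-transferases (2 higher, 2 lower) and 7 of 33 UDP-glycosyltransferases (4 higher, 3 lower) had an unadjusted p under 0.05, and none passed (limma, adjusted p under 0.05). Over all genes 5.73% had an unadjusted p under 0.05 and 0.0646% passed. The difference between the CYP3 clan and these lists was not tested.

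**Figure D5:**
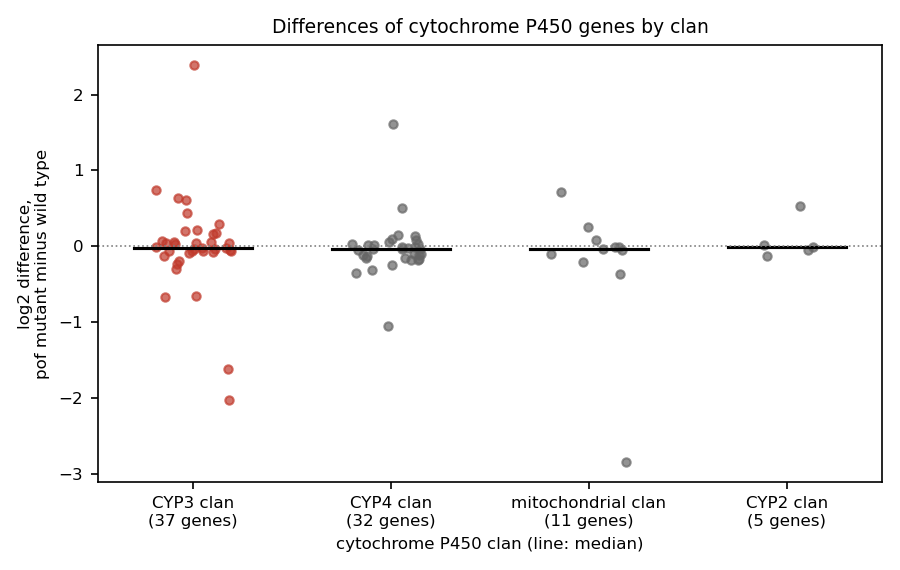
Log2 difference, pof mutant minus wild type, of each cytochrome P450 gene by clan, CYP3 clan in red (37 genes) and the CYP4, mitochondrial and CYP2 clans in grey (32, 11 and 5 genes), with the median as a line. The medians lie between -0.04 and -0.01 in all 4 clans, and the CYP3 clan runs from -2.02 to 2.39.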

How the data were processed

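Arrays were grouped by the sample titles into 4 of pof mutant and 3 of wild type. RMA is the method named in the submitters' processing notes (without a version), and the authors deposited its log2 output, which was analysed as it stood, without detection calls. Gene symbols came from the platform annotation, and all 37 member genes matched an identifier in RefSeq (Release 6), used for arms, gene order and overlaps. Where the labels call pools replicates, p-values measure only the spread between these pools.

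The 13966 probe sets other than the 44 controls were fitted with limma 3.58.1 in R 4.3.3 (lmFit, eBayes, no covariate), with Benjamini-Hochberg adjustment over all of them. Standard errors and 95% intervals are moderated ones. The steps were tested on simulated data. Summaries used Python 3.11.15, pandas 2.3.3 and matplotlib 3.10.9. Shares over all genes use 1 probe set per gene.

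The members, lists and alternatives were chosen with earlier results of these data known. Array values are given in full for every member with an unadjusted p under 0.05 and for others where the text turns on them. Besides, up to 3 genes of each list are named. No sequences were used here, so identity between members was not computed.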

Additional observations from a re-analysis of the deposited data

Results flagged for a closer look

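Outlying arrays were looked for among the 4 mutant arrays alone. Of the 37 members, 2 had a mutant array whose distance from its nearest neighbour took up more of the range than Dixon's 95% limit allows, and about 1 in 20 sets (1.85) would do so by chance. *Cyp9c1* was 6.25 on pof mutant replicate 2, against 6.52 to 6.56 on the other mutant arrays. *Cyp28d1* was 6.52 on pof mutant replicate 2, while the other mutant arrays shared 1 value, 6.49.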

How the results depend on the processing

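All 10 members with an unadjusted p under 0.05 kept the sign of their difference in all 15 alternatives run, as did 10 of the 27 others in the 14 or 15 that hold them, and 384 of the 391 values of those others moved by less than the spread between replicates without changing their call. The call of *Cyp6a17* held in 10 of the 15 alternatives. The number of members past the threshold was 1 in the main fit, where 9 of all 13966 probe sets passed. It was 2 after another quantile normalization (12 of 13966), with eBayes trend and robust (13 of 13966), and with probe sets averaged per gene (16 of 12367). It was 5 with the 3' minus 5' covariate (86 of 13966 probe sets passed) and 9 with array weights, 3 higher and 6 lower. With array weights 1200 of 13966 probe sets passed, and the estimation of the weights stopped short of its convergence tolerance. The number of members was 0 at an adjusted p limit of 0.01 and 2 at 0.1, with no count over all probe sets given here. Over the arrays left out in turn it ran from 0 to 3, while 0 to 34 of all 13966 probe sets passed. Where more probe sets passed in all, a rise in this number cannot be read as a result about the members. With array weights 17 members had an unadjusted p under 0.05 instead of 10, and this count ran from 6 to 11 over the arrays left out, with 6 without pof mutant replicate 3. The number of members whose groups do not overlap (10) ran from 10 to 17 over the arrays left out, with 17 without wild type replicate 3, and was 9 after another quantile normalization and at a mean level of at least 6. With fewer arrays any gene is more likely to show no overlap. Shares over all genes for these 2 counts were not taken under the alternatives, so a rise in them cannot be read as a result about the members. The median difference was 0.0499 at a mean level of at least 6 and ran from -0.0487 to 0.0272 over the arrays left out. The labels state no pairing of the arrays by replicate number. Deviations from the group means correlated at 0.245, -0.571 and 0.559 for numbers 1 to 3, and so few values, of mixed sign, cannot decide whether they are paired. With the replicate number as a block 0 members passed and 11 had an unadjusted p under 0.05, although pof mutant replicate 4 has no wild-type partner and drops out. Members with mean levels under 6 (14 of 37) lie where RMA understates differences.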
